A study of Homo sapiens with 22 samples.

Results

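A set of 246 promoter-class H3R2me2a regions lay outside annotated transcription start windows, and their positions, tags and neighbours are described here. They were all regions of the promoter list whose position class was upstream, exon, intron or intergenic rather than start window, 246 of the 4236 regions of that list and of 8819 regions in all. The start window reached 1.25 kb and the upstream class 5000 bp from a start, per the file headers. The regions came from chromatin immunoprecipitation and sequencing (ChIP-seq) with a rat monoclonal antibody made in the laboratory of the study. The cells were the CRISPR/Cas9 control line of NT2/D1, a pluripotent human embryonal carcinoma line, grown either without all-trans retinoic acid (ATRA) or with 1 µM ATRA for 3 days. All groups were grown in the same serum-containing medium, and cells deleted for PRMT6 (KO-1 and KO-2) were not analysed here. Of 22 samples with 5 antibodies, these 2 libraries carried region lists, 1 per condition, so no p-value is given, intervals cover counting error only, and differences have no replicate check. Regions are not replicates of a condition. Sequencing depth is unknown.

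H3R2me2a is the asymmetric dimethylation of arginine 2 of histone H3, placed mainly by PRMT6. The modified arginine sits next to lysine 4, and the mark hinders the complexes that trimethylate lysine 4, a modification typical of active promoters. It is also known from enhancers, where lysine 4 carries a single methyl group. Retinoic acid enters the nucleus with CRABP2 and binds receptors that switch NT2/D1 cells from pluripotency towards neural fates. A promoter-class region outside a start window can therefore be set beside both promoters at starts and distal enhancers. No source used here gives the criteria by which the authors assigned the classes and clusters.

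The genes below were chosen because a member lay within 5000 bp of a start-window region of the same gene. All are on the gene lists used here, and each has a single start in the RefSeq table, from which the 250 bases before the start were taken (build GRCh38.p14, 5′ to 3′ on the gene's strand). Capitals mark CG dinucleotides, the sites of DNA methylation. The CRABP2 sequence is chr1:156705785-156706034 on the minus strand, NES is chr1:156677408-156677657 on the minus strand, ZIC2 is chr13:99981534-99981783 on the plus strand and ZNF367 is chr9:96418371-96418620 on the minus strand.
CRABP2: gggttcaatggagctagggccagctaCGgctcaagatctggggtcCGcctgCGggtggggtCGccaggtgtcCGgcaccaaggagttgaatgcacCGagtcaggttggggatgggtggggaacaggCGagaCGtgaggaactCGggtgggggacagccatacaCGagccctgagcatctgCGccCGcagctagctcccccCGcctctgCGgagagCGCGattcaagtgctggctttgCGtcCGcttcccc
NES: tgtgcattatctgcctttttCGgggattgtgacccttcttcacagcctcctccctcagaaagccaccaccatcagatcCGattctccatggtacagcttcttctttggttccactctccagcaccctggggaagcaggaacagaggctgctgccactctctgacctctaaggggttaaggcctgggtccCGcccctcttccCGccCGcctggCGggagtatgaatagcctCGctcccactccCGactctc
ZIC2: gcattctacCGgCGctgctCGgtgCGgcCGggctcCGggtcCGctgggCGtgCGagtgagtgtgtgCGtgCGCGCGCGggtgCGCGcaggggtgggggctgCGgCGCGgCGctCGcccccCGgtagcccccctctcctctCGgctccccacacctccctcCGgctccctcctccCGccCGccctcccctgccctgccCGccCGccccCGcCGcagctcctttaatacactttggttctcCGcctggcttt
ZNF367: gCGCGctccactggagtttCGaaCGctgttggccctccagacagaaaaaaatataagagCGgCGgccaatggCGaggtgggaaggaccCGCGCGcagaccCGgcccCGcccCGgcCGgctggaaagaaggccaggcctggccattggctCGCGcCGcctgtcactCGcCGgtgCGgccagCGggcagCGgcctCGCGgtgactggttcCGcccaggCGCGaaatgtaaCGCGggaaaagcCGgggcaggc
CRABP2 held 18 CG dinucleotides, NES 8, ZIC2 31 and ZNF367 30, beside a median of 17 over the 15843 protein-coding promoters of the table. NES, an intermediate filament gene of neural progenitors, was the only one of the 4 below that median. The letters GGGCGG, searched on both strands and counted without overlaps, occurred 2 times in each of NES, ZIC2 and ZNF367. ZIC2 also held further copies that overlap the counted ones. The letters were not found in CRABP2, and 56.0% of the protein-coding promoters held them. The letters AGGTCA, also searched on both strands, occurred 1 time in NES, and 10.3% of the promoters held them. A match describes letters only. The H3R2me2a regions are on hg19, so these sequences were not placed relative to them.

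Members lay between genes more often than in any single other class. There were 99 intergenic members (40.2%), 73 in introns (29.7%), 50 upstream (20.3%) and 24 in exons (9.76%). Among the 3870 enhancer-class regions outside start windows, 37.4% were intergenic, 50.4% intronic, 6.74% upstream and 5.45% exonic. The odds of the upstream class were 3.53 times those of enhancer-class regions (exact 95% interval 2.47 to 4.97), and the intergenic odds ratio was 1.13 (0.859 to 1.48). The intron shares parted most, at 29.7% of members (24.04 to 35.8) against 50.4% (48.9 to 52.0), and the exon shares parted as well (6.35 to 14.2 against 4.76 to 6.21). Members were thus more often upstream or exonic and less often intronic than enhancer-class regions, beyond counting error, and the intergenic shares overlapped.

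Distances to the named start are the authors' own column, positive downstream of the start, and part of how the members were chosen. The median size was 5711.5 bp (95% interval 4768 to 7268), and 45.1% of members lay within 5000 bp. For enhancer-class regions outside start windows that share was 21.0%. The medians were 2635 bp upstream, 2593 bp in exons, 2684 bp in introns and 15251 bp between genes. The nearest members were at DERA (1380 bp), FAM46B (1387 bp) and the small RNA pseudogene RNU6-481P (-1489 bp). The farthest was an intronic member at OPCML, a neuronal cell adhesion gene, at -120733 bp. Class and distance do not always refer to the same transcript: 8 of the 50 upstream members had a positive distance. Just inside the rule, 40 of the 3990 start-window regions had distances over 1.25 kb, the largest at FBXL14 (2855 bp), HOXA3 (1999 bp) and LAMA5 (-1945 bp). When starts were inferred from the region middles, which gave the best agreement among regions of the same transcript, 4 member intervals came within 1.25 kb of the start and 0 covered it.

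**Figure D1:**
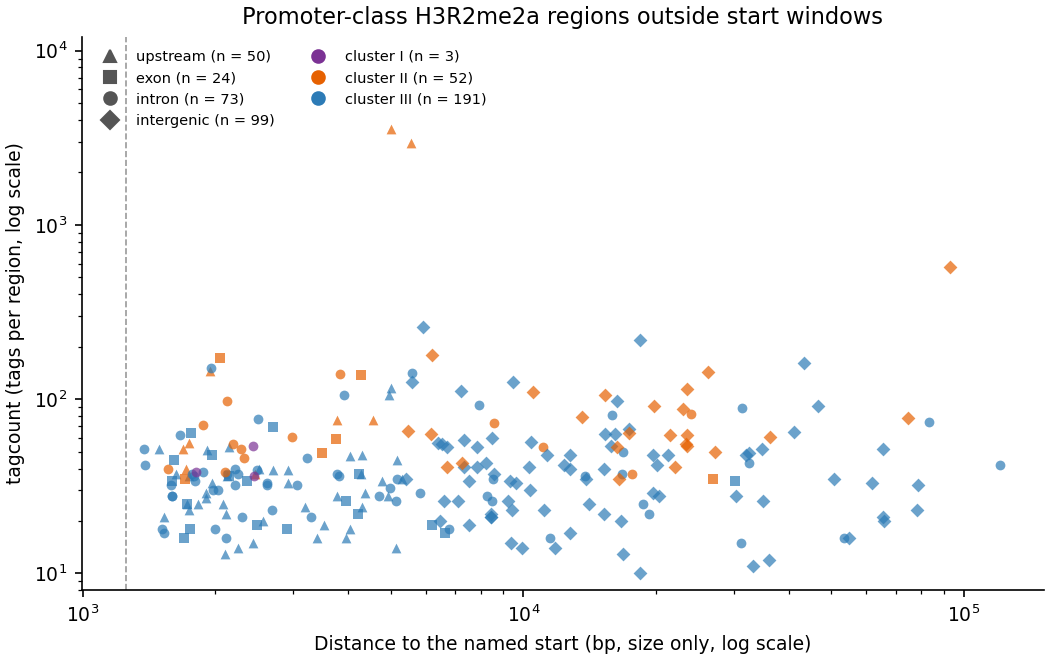
Each point is 1 of the 246 members, with its distance to the named start (bp, log scale) against its tagcount (log scale). Shapes show the position class, colours the cluster, and the dashed line the 1.25 kb start window. A pair of upstream members at 3527 and 2962 tags stand above all others, and the farthest point to the right is an intronic member at OPCML.

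Tags were read in 2 whole-number columns. The tagcount column was given for every promoter-class and enhancer-class region, and no source used here gives the library it was read in. A count named MACS tags came with the lists of clusters I and III. At the 3 cluster I members, in a list deposited under the library without ATRA, the columns were close: 36 tagcount and 34 MACS tags at CACHD1, 38 and 33 at KIAA1467, and 54 and 53 at PDGFA, a growth factor gene. The median tagcount of members was 37 (35 to 40), below the 40 (39 to 41) of start-window promoter-class regions and above the 23 (22 to 23) of enhancer-class regions outside. Per kb of region the medians were 66.6 (62.4 to 71.9) in members, 70.5 (69.2 to 72.4) in start-window regions and 42.5 (41.5 to 43.6) in the enhancer class. The member and start-window intervals overlapped on both scales, and both lay above the enhancer class. Widths were similar too, with medians of 531.5 bp (500 to 566) in members, 534 bp in start-window regions and 495 bp in the enhancer class.

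Member tagcounts ran from 10 to 3527, and 23 members had more than 100. The largest belonged to regions on unplaced contigs. A region named for a Y RNA on GL000205.1 had 3527 tags over 4226 bp, and another on GL000195.1 had 2962 over 3097 bp. An intergenic region on GL000220.1 had 576 tags over 1272 bp. All 3 were in cluster II. Contigs held 7 of the 246 members (2.85%, 1.15 to 5.77), against 0.100% of start-window promoter-class and 0.258% of enhancer-class regions outside. The part of read filters, which decide how repeated sequence is counted, was not tested. On placed chromosomes the highest were the pseudogene CDC27P1 with 260 tagcount and 305 MACS tags, RNU4-67P with 219 and 342, and a Y RNA on chromosome 20 with 179 in cluster II.

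Clusters I and II were deposited under the library without ATRA and cluster III under the library with ATRA. Cluster III held 191 members (77.6%), cluster II held 52 (21.1%, 16.2 to 26.8) and cluster I held 3 (1.22%). The cluster II share lay between those of the comparison groups, 36.4% (34.9 to 37.9) in start-window promoter-class regions and 10.9% (9.96 to 11.96) in enhancer-class regions outside. The odds ratio was 0.469 (0.336 to 0.645) against start-window regions and 2.18 (1.55 to 3.03) against the enhancer class. By position, 24.2% of intergenic, 25% of exonic, 18% of upstream and 17.8% of intronic members were in cluster II, with wide and overlapping intervals. Against enhancer-class regions of the same position the odds ratio was 2.61 (1.53 to 4.32) between genes. It was 1.95 (0.965 to 3.68) in introns, 2.17 (0.649 to 6.35) in exons and 1.14 (0.454 to 2.62) upstream, and each of these intervals held 1.

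The difference from the enhancer class went with the level of tags. The lowest tagcount in cluster II was 35 in members, and no region of the 3 groups with fewer was in that cluster. Among regions with at least 35, cluster II held 35.9% of members (28.1 to 44.2), 36.8% of enhancer-class regions (34.0 to 39.7) and 59.5% of start-window regions (57.5 to 61.5). With at least 40, the median of the promoter list, the odds ratio against the enhancer class turned to 0.907 (0.594 to 1.38). Against start-window regions the intervals parted at 60 or more tags, where cluster II held 52.7% of members (38.8 to 66.3) and 79.8% of start-window regions (77.4 to 82.0). They overlapped at 40 to 59 tags, with 29.8% (18.4 to 43.4) against 46.0% (42.6 to 49.4), and at 35 to 39 tags, with 18.2% against 29.9%.

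**Figure D2:**
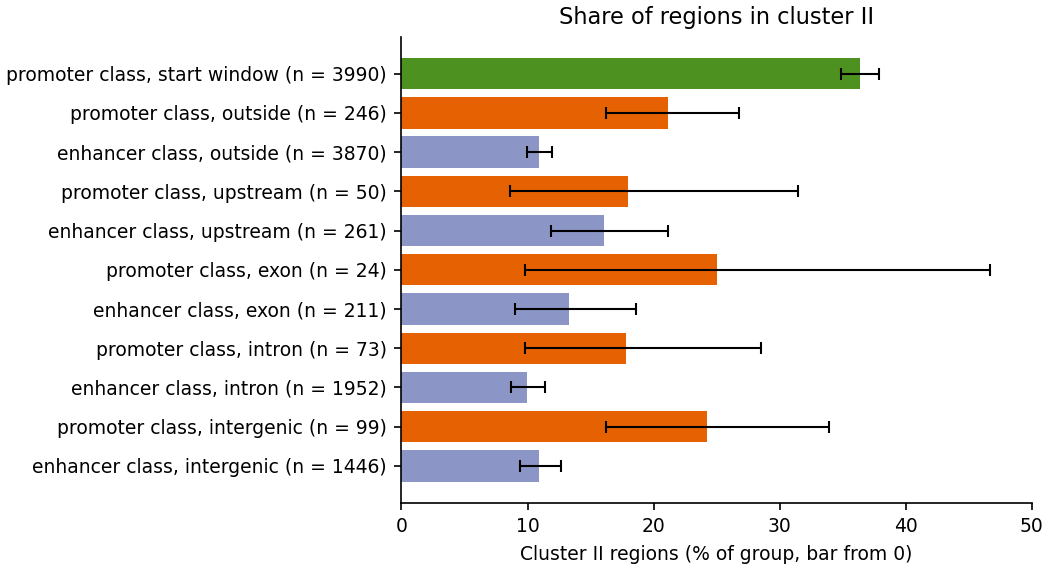
Bars show the percent of regions in cluster II, from 0, with exact 95% intervals, for start-window promoter-class regions (green), members (orange) and enhancer-class regions outside start windows (blue) by position. Members overall sit at 21.1%, between 36.4% and 10.9%, and among the 4 position classes the intervals part only between genes.

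For the 191 cluster III members both columns could be set side by side. MACS tags were higher than tagcount at 187, equal at 1 and lower at 3. This count was not taken over all cluster III regions, so it is not read as particular to members. The lowest MACS count of these members was 29, while tagcount went down to 10. MACS tags were at least 2 times tagcount at 48 of 191 (25.1%, 19.1 to 31.9), against 53.5% of all 6519 cluster III regions. At a fold of 1.5 it was 60.7% of members against 80.3% of all, and at a fold of 3 it was 11 members (5.76%) against 27.8%. The tags are unscaled, so the share is read only against the same share elsewhere. It was 35.96% (34.1 to 37.9) in start-window promoter-class regions and 67.9% (66.2 to 69.5) in enhancer-class regions outside. The odds ratios were 0.598 (0.418 to 0.844) and 0.159 (0.111 to 0.224). The median ratio of the columns was 1.65 (1.55 to 1.72) in members, 1.78 (1.76 to 1.82) in start-window regions and 2.71 (2.64 to 2.81) in the enhancer class.

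The MACS column itself differed little. Its cluster III medians were 52 tags (47 to 58) in members, 52 in start-window regions and 49 in the enhancer class, and per kb they were 96.9, 96.1 and 98.4. The tagcount medians were 34 (30 to 36), 30 (29 to 31) and 19 (19 to 20). The tagcount of members and start-window regions overlapped, and both lay above the enhancer class. Within bands of tagcount the order of the 3 groups was the same in all 4. At 20 to 29 tags the share at 2 times or more was 27.1% in members (15.3 to 41.8), 34.4% in start-window regions and 50.9% in the enhancer class (47.3 to 54.5). At 40 or more it was 4.62% (0.962 to 12.9), 15.5% (12.9 to 18.4) and 24.4% (20.1 to 29.1). The member interval was below the enhancer-class interval in those bands and at 10 to 19 tags, and overlapped it at 30 to 39 tags. Against start-window regions the intervals overlapped in every band.

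**Figure D3:**
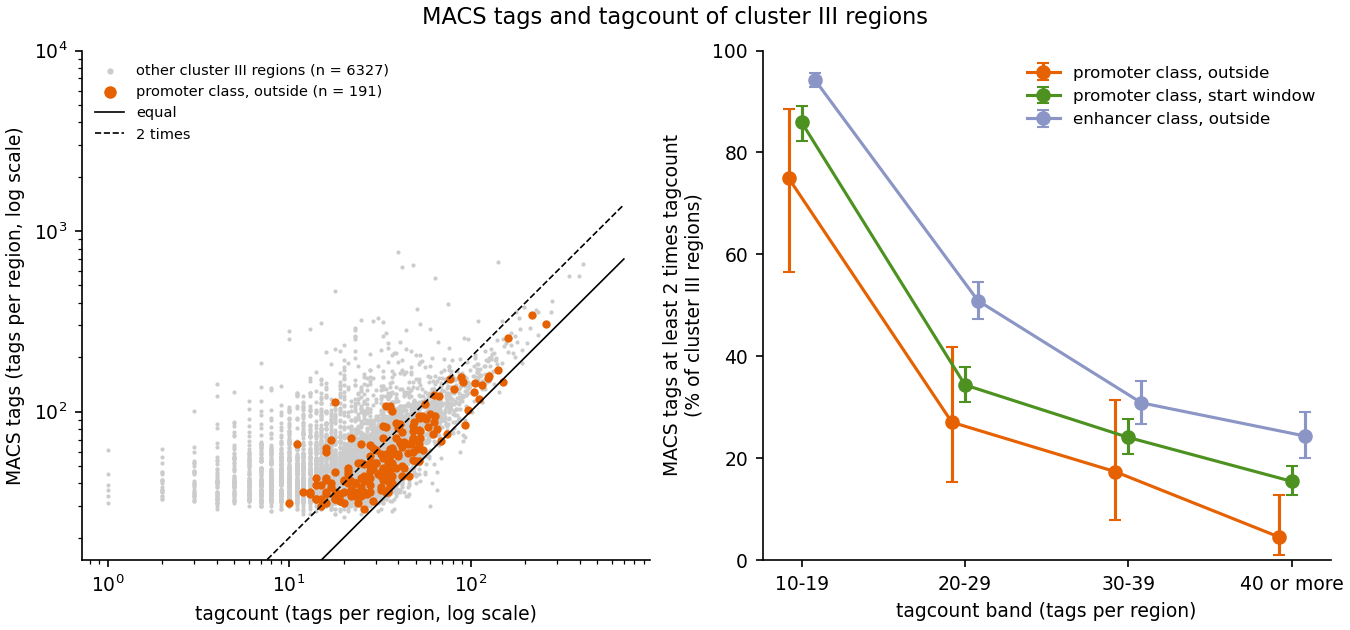
Left, MACS tags against tagcount (both log scale) for 191 cluster III members over 6327 other cluster III regions (1 region with a tagcount of 0 is not drawn), with lines at equal and at 2 times. Right, the percent at 2 times or more by tagcount band with exact 95% intervals; members lie lowest in each band, from 75% at 10 to 19 tags to 4.62% at 40 or more.

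The share at 2 times or more was lower on the short arm of chromosome 12. That arm (before 36 Mb) carried 33 members (13.4%, 9.42 to 18.3), against 5.31% of start-window and 8.66% of enhancer-class regions. Of its 30 cluster III members, 0 reached 2 times (upper limit 11.6%), with a median tagcount of 58. Elsewhere 48 of 161 did (29.8%, 22.9 to 37.5), with a median tagcount of 30. At a matched tagcount of 20 to 39 it was 0 of 6 members on the arm (upper limit 45.9%) against 23.9% elsewhere (15.4 to 34.1), and these intervals overlap. On that arm the share was also low in the other groups, at 6.74% of start-window and 32.5% of enhancer-class regions, beside 38.2% and 71.4% elsewhere. Without the arm the member interval still lay below the enhancer-class one (69.8 to 73.1), and it overlapped the start-window one (36.2 to 40.2). DNA copy number of the arm was not measured in these lists, and its part was not tested. Chromosome 1 held 63 members (25.6%, 20.3 to 31.5), against 17.9% of start-window and 18.7% of enhancer-class regions.

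The highest ratio was at HOXA3, a homeobox gene of the anterior HOXA group that responds to retinoic acid. Its exonic member had 18 tagcount and 113 MACS tags, a ratio of 6.28. It lay 79 bp from a start-window region of the same gene with 50 and 151 tags. RNU1-141P followed with 11 and 66, then an intronic NES member with 17 and 70, GYPC with 16 and 63, and MIR3155A with 16 and 60. GYPC encodes a red cell membrane glycoprotein. At the other end, RP11-599J14.2 had 93 tagcount and 84 MACS tags, AL358813.2 had 46 and 44, and BCAT1 had 151 and 145. SLC2A3, the neuronal-type glucose transporter GLUT3, had 69 in both columns, and CACNA1C had 74 and 75. BCAT1 encodes a cytosolic branched-chain amino acid transaminase. Apart from AL358813.2 on chromosome 1, these members with the lowest ratios are on the short arm of chromosome 12. Upstream, FOXK1 had 36 and 108 tags, the corepressor gene RCOR2 40 and 84, and KDM6B, a demethylase of H3K27, 33 and 83.

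Many members sat beside a start-window region. A promoter-class start-window region lay within 5000 bp, edge to edge, of 54 of 246 members (21.95%, 16.9 to 27.7). The same held for 68 of 3870 enhancer-class regions outside start windows (1.76%, 1.37 to 2.22), an odds ratio of 15.7 (10.5 to 23.5). Start-window regions had another such region within 5000 bp in 17.6% of cases (16.4 to 18.8). The share was 54.2% in exons, 34% upstream, 30.1% in introns and 2.02% between genes. Members are closer to starts than enhancer-class regions, so the share was also taken by distance to the named start. Under 2500 bp it was 52.2% of 69 members (39.8 to 64.4) against 4.85% of 268 enhancer-class regions (2.61 to 8.15). From 2500 to under 5000 bp it was 35.7% (21.6 to 52.0) against 8.61% (6.39 to 11.3). From 5000 to under 10000 bp it was 5.77% (1.21 to 15.9) against 1.03% (0.444 to 2.01), with overlapping intervals. At 10000 bp or more it was 0 in both groups. That is largely fixed in advance, because start-window regions lie near starts. The low share between genes has the same limit, since no intergenic member was closer than 5416 bp. The band from 10000 bp held 83 of the 246 members and 2273 of the 3870 enhancer-class regions, which adds to the odds ratio of 15.7. Within 100000 bp, 60.2% of members had such a neighbour, beside 59.9% of start-window and 30.6% of enhancer-class regions.

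**Figure D4:**
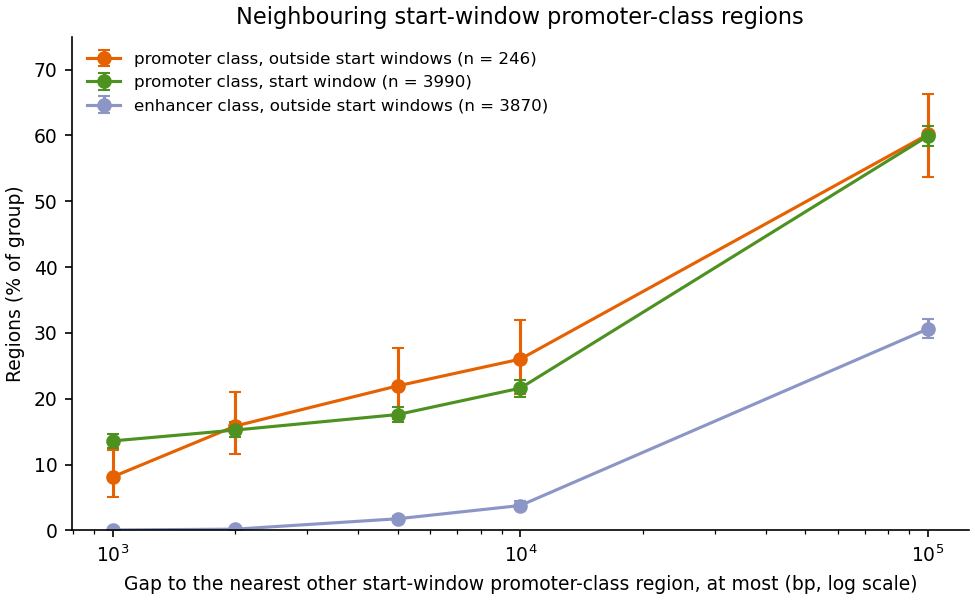
The percent of regions with another start-window promoter-class region no farther than the gap on the horizontal axis (bp, log scale), with exact 95% intervals. At 5000 bp members stand at 21.95% and start-window regions at 17.6%, both above the 1.76% of enhancer-class regions outside start windows.

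Of the 54 members with such a neighbour, 50 shared its named gene and 37 its cluster. Names go by the nearest start, which regions this close tend to share. Cluster III held 191 of the 246 members and 2517 of the 3990 start-window regions, so many pairs would match by these shares alone. The number expected from them was not computed, and the 37 are not read as agreement within pairs. In 34 pairs both regions were in cluster III and in 3 both were in cluster II. The other 17 pairs crossed clusters: 8 had a cluster III member beside a cluster II start region, 7 the reverse, and 2 involved cluster I. The member's tagcount was lower than its neighbour's in 33 pairs, higher in 19 and equal in 2. In the 34 cluster III pairs the member had fewer MACS tags in 22 and the higher ratio in 13.

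**Figure D5:**
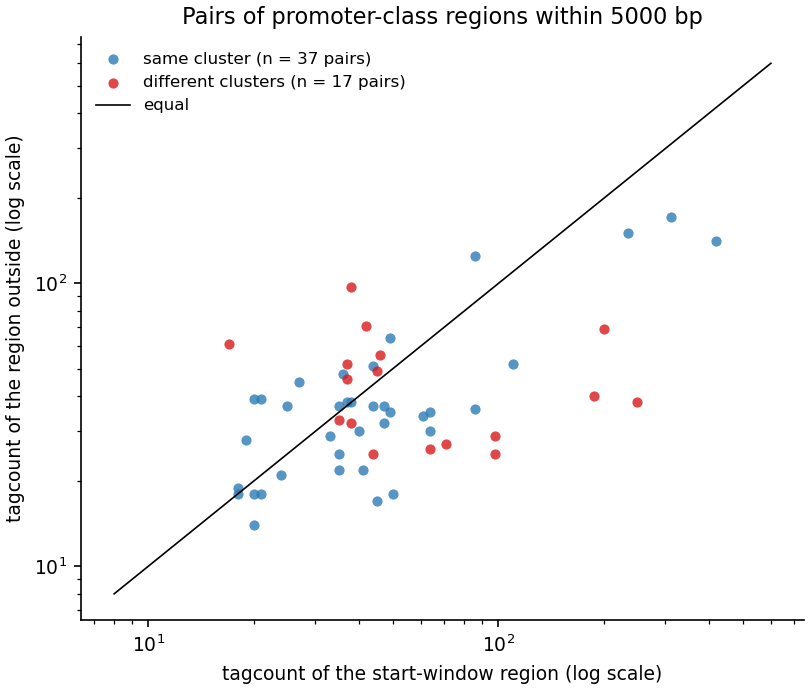
The tagcount of each of the 54 members (vertical, log scale) against that of the start-window region within 5000 bp (horizontal, log scale), with the line of equal values. The 37 pairs of the same cluster are blue and the 17 of different clusters red; 33 points lie below the line.

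Retinoid, pluripotency and neural genes were named by 5 members in all. Of the retinoid list only CRABP2 was named, by 1 of 246 members (0.407%, 0.0103 to 2.24), beside 0.150% of start-window regions and 0.491% of enhancer-class regions outside. Its upstream member at chr1:156677364-156677885 lay 45 bp from a start-window region, and both were in cluster III. The member had 36 tagcount and 40 MACS tags, and the start-window region had 86 and 151. Of the pluripotency list only LIN28A, which blocks maturation of let-7 microRNAs, was named, also by 1 member (0.407%), beside 0.175% of start-window and 0.207% of enhancer-class regions. The member intervals held both comparison shares in each list. The intronic LIN28A member was in cluster II with 71 tags and lay 368 bp from a cluster I start-window region with 42. Other start-window regions of LIN28A were in cluster II, with 45 and 111 tags.

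NES and ZIC2 were the named genes of the neural list, with 3 members (1.22%, 0.252 to 3.52), beside 0.0752% of start-window regions (0.0155 to 0.220) and 0.207% of enhancer-class regions. Of the 3 members 2 shared the NES gene. NES had an exonic member in cluster II with 49 tags and the intronic cluster III member with 17 and 70. Its start-window region, in cluster III, had 45 tagcount and 96 MACS tags, so cluster membership differed within the gene. ZIC2, a zinc finger factor of the developing brain, had an upstream member with 29 and 48 tags. Its nearest start-window region, 3787 bp away, had 33 and 50. The adjoining gene ZIC5 was named by 2 further members, with 25 and 43 tags and with 21 and 47. All 3 ZIC members lay within 22.4 kb on chromosome 13 and were in cluster III.

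Genes on the list of D-type cyclins and CDK inhibitors were named by 3 members (1.22%, 0.252 to 3.52), 2 of them at CCND1. The list was named by 0.150% of start-window regions (0.0552 to 0.327) and 0.233% of enhancer-class regions (0.106 to 0.441). The member interval overlapped both. CCND1, a D-type cyclin that drives entry into S phase, had upstream members with 29 and 52 tags and with 25 and 38 tags, both in cluster III, while its start-window region was in cluster II with 98. CCND2 had an intronic member of 1443 bp with 141 tagcount and 170 MACS tags. It lay 190 bp from a start-window region of 5216 bp with 418 and 654. Of the arginine methyltransferase list only PRMT8, the membrane-bound neuronal enzyme, was named, with 50 and 53 tags at 16819 bp. The linker histone gene H1F0 had an upstream member with 39 and 71 tags, and its start-window region 2416 bp away had 21 and 41. That is 1 of the pairs in which the outer region was the higher.

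Numbered ZNF genes, most of which encode zinc finger proteins, were named by 5 members (2.03%, 0.663 to 4.68), beside 4.61% of start-window regions (3.98 to 5.31) and 0.517% of enhancer-class regions (0.316 to 0.798). They were ZNF806, ZNF593, ZNF280D, ZNF710 and ZNF367. ZNF367 had 14 and 43 tags upstream, a ratio above 2. A count of 0 among 246 members allows a share of up to 1.49%. Cytoplasmic ribosomal protein genes had 0 members, beside 1.58% of start-window (1.22 to 2.02) and 0.0776% of enhancer-class regions. H3K4 methylation machinery had 0, beside 0.301% and 0.0776%. The WNT, Notch and Hedgehog list had 0, beside 0.376% and 0.569%. The translation and glycolysis list had 0, beside 0.652% and 0.129%, and the snoRNA host genes had 0, beside 0.301% and 0. Except for the start-window share of ribosomal protein genes, each of these shares lay under that limit. The interval of that exception reached below the limit as well, so at this number of members no difference was detectable on these lists. MicroRNA genes were named by 4 members (1.63%, 0.445 to 4.11), beside 0.376% of start-window and 2.15% of enhancer-class regions. MIR3649 had 145 tags in cluster II, MIR3155A 16 and 60, MIR99B 33 and 55, and MIR1469 19 and 32.

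The list of small nuclear, nucleolar and Y RNA genes took in pseudogene copies such as RNU6-481P and the 7SL name RN7SL592P. Its names were given to 26 members (10.6%, 7.02 to 15.1), against 0.977% of start-window regions (0.696 to 1.33) and 6.21% of enhancer-class regions outside (5.47 to 7.01). The member interval lay above both, only just so for the enhancer class. Adjacent regions were counted separately, such as 3 named for RNU4-67P at the same locus. A separation from the enhancer class this narrow is therefore not established, and the share per locus was not tested. By gene type, 45.9% of members named a protein-coding gene, 16.3% a long non-coding gene, 14.6% a pseudogene and 12.6% a small RNA, and 10.6% were not matched. In start windows 87.4% named a protein-coding gene and 1.38% a small RNA. In the enhancer class 45.7% named a protein-coding gene and 8.99% a small RNA, which for members gave odds ratios of 1.01 (0.771 to 1.32) and 1.46 (0.952 to 2.17). Long non-coding genes were named by 16.3% of members (11.9 to 21.5), 26.2% of enhancer-class regions (24.8 to 27.6) and 8.30% of start-window regions (7.46 to 9.19). Pseudogenes were named by 14.6% (10.5 to 19.7), 13.4% (12.3 to 14.5) and 0.902%. Members were thus apart from start-window regions on each of these types, and from the enhancer class on matched long non-coding names. The 10.6% of members not matched count in none of these types. Their types are unknown, so the long non-coding difference from the enhancer class is not settled. Y_RNA, a name shared by many copies, was given to 11 members. The nearest annotated transcript is not shown to be the one a region acts on.

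Most members had no other member within 1000 bp. To any listed region the median gap was shorter in members, at 8863.5 bp (4709 to 13037). It was 43024 bp (40011 to 46361) in start-window regions and 30250.5 bp (28139 to 32468) in enhancer-class regions outside. Loci and runs were formed from members only and have no comparison group. With gaps of up to 1000 bp the 246 members formed 228 loci, of which 211 held 1 member and 17 held more, 35 members in all. Cluster III held 191 of the 246 members, so members of a locus would often match by that share alone. The number expected from it was not computed. In 16 of the 17 loci all members were in the same cluster. The exception was KLF9, a hormone-responsive zinc finger gene, with a cluster II member of 76 tags beside a cluster III member of 28 and 50. SALL1, a regulator of embryonic stem cell and kidney development, had a pair in cluster III with 39 and 49 tags and with 18 and 33. TOB2, an antiproliferative gene, had 2 cluster II members with 46 and 52 tags. They lay on either side of a cluster III start-window region.

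With gaps of up to 100 kb, 10 runs held 3 or more members, 38 members in all. The longest by count were 7 members over 184.6 kb on the short arm of chromosome 12, named for Y_RNA, SLC2A3 and FOXJ2. All were in cluster III, with 48 to 125 tagcount and 54 to 154 MACS tags. A run of 6 on chromosome 1, around FCGR2A, spanned 213.1 kb, all in cluster III, with 26 to 161 tagcount. NEAT1 and MALAT1, abundant nuclear long non-coding RNAs, formed a run of 4 on chromosome 11. NEAT1 had an exonic member in cluster II with 35 tags and another in cluster III with 26 and 44, and MALAT1 had an exonic member with 64 and 94 tags and an intergenic one with 28 and 47. PAPPA-AS2 had 3 intronic members in cluster III with 22 and 71, 25 and 66, and 37 and 44 tags.

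The 52 cluster II members carried a second interval, which was wider than the first at 47. The median widths were 510.5 bp and 701.5 bp. Over all 2098 cluster II regions the second was wider at 1782, with medians of 519 bp and 704.5 bp. No source used here gives the library of either interval.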

How the data were processed

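The build was hg19 (GRCh37), and the tools named were MACS 1.4, deepTools, Bowtie2 and bcl2fastq, with no stated role, per the submitters' processing notes. The authors deposited 5 region lists with whole-number tag counts per region and no scaling, per the file headers; no source used here states filters, the peak-calling control or depth. Promoter and enhancer lists were joined to the clusters on chromosome, start and stop, and all 4236 promoter-list regions matched. Members and gene lists were chosen with earlier results of these data known. Shares carry exact Clopper-Pearson 95% intervals, odds ratios exact conditional intervals and medians order-statistic intervals, tested on simulated data. A fold of 2 of MACS tags over tagcount was used. Samples were grouped by their labels. Where the labels name no separate cultures, replicates could not be assessed, since there was 1 library per condition. Gene types came from GENCODE 44. Comparing promoter sequence between the groups is void, since 79 of 102 protein-coding member genes (77.5%) matched the RefSeq table, under the 80% required.

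Named members were, per position class, the 5 highest in tagcount and in MACS tags, the 10 farthest and 3 nearest to the start, all of cluster I, genes with 2 or more members, genes on the lists, the 5 highest and 5 lowest ratios and the 5 widest. Alternatives were a tagcount or width at the promoter-list median, other distance, neighbour and fold limits, 1 member per locus, and leaving out chromosome 12, its short arm, contigs or shared small RNA names. The locus and short-arm alternatives were chosen after seeing the data, as were the tagcount and distance bands. Python 3.11.15, pandas 2.3.3, numpy 2.4.6, scipy 1.17.1 and matplotlib 3.10.9 were used.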

Additional observations from a re-analysis of the deposited data

How the results depend on the processing

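Of 89 alternative values, 70 stayed within the counting interval of the reported one, 18 moved beyond it and 1 changed direction. Restricting all groups to a tagcount of at least 40 moved most: the cluster II share was 41.1%, its odds ratio against the enhancer class turned to 0.907, the median tagcount was 58.5, the median width 639 bp, the median distance 7586.5 bp, the share with a start-window neighbour of at least 40 tags 10.7%, and the share at 2 times or more 4.62%. Drawing the set by a distance over 1.25 kb in place of the class gave a median distance of 4296.5 bp and put 14.0% of intervals within 1.25 kb of the start. Over 1000 bp the median distance was 2925 bp, the neighbour share 28.7% and the intervals within 1000 bp of the start 15.8%. Regions of at least 534 bp had a median tagcount of 50 and a median width of 664 bp. The neighbour share was 8.13% within 1000 bp, 15.9% within 2000 bp and 43.5% for any region within 5000 bp. At a fold of 1.5 the share was 60.7% (80.3% of all cluster III regions), and at 3 it was 5.76% (27.8%). Leaving out contigs, chromosome 12, its short arm or shared small RNA names, or keeping 1 member per locus, moved none of the 9 results beyond its interval. The limits on tagcount, width, distance and fold change which regions are counted by construction. No paired analysis was possible because each condition had 1 library with region lists and the result comes from no test across samples. Depth is unknown, so ratios of the 2 tag columns are relative to other regions only, and no region compared here with under 35 tags was in cluster II.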
